A study of Drosophila melanogaster with 58 samples.

Results

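The mitotic genes of the Drosophila wing were followed in RNA-seq counts as 42 genes among the 17559 listed for each library. They were chosen by function, as FlyBase symbols matched to the gene identifiers of the count tables, in 7 roles: 5 kinases and passenger complex subunits, 5 spindle checkpoint genes, 8 centromere and kinetochore genes, 10 kinesins and other spindle genes, 4 genes of chromatid separation, 6 condensin and cohesin subunits and 4 cytokinesis genes. All 42 had enough counts to be tested. The 24 libraries came from wings labelled female, with 2 libraries in each of 12 groups. Transgenic wings were collected at 24 h and 44 h after puparium formation (APF) in 3 genotypes. E2F + CycD wings are labelled as expressing CycD, Cdk4, E2F1 and DP. Their level of Dp, given with the other transgenes, was far nearer to control than to E2F wings. E2F wings expressed E2F1 and DP, and control wings carried the flippase and driver without these transgenes. By the study's methods, these genotypes all carried a heat-shock flippase, a flip-out GAL4 driver under the tubulin promoter with UAS-GFP, and a temperature-sensitive GAL80. Larvae were heat shocked in the second instar and then kept cool. Expression began at a shift to a higher temperature during pupal life. The hours given for these transgenic wings are equivalents that the study adjusted for temperature. E2F + CycD flies carried UAS-CycD and UAS-Cdk4 on the second chromosome and UAS-E2F1 and UAS-DP on the third, which are not the same insertions as in E2F flies. The 24 h E2F libraries are labelled only "E2F_24h" for genotype. Wild-type wings were collected at the third larval instar (L3) and at 6, 18, 24, 36 and 44 h APF.

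Mitosis begins when kinases such as Polo and the Aurora kinases act on chromosomes and spindle, and condensin compacts the chromosomes. Kinetochores, built on centromeric chromatin that contains the histone H3 variant Cid, attach the chromosomes to microtubules, and the spindle checkpoint delays anaphase until they are attached. Fizzy, the fly Cdc20, then activates the anaphase-promoting complex, securin is destroyed, separase opens cohesin, and the centralspindlin complex of Pavarotti and Tumbleweed organises the cytokinetic furrow. Wing cells pause in G2 after pupariation, divide for the last time before 24 h APF and then leave the cell cycle. E2F1 with DP activates genes for the cell cycle, and Cyclin D with Cdk4 phosphorylates the Rb family proteins that restrain E2F.

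Library depth was 11201219 to 16332737 gene counts in transgenic wings and 1900774 to 7512920 in wild-type wings, so that 3 counts correspond to 0.184 to 0.268 and 0.399 to 1.58 CPM. A level in CPM is a gene's count relative to its library total, after TMM scaling. Wild-type and transgenic libraries were scaled and fitted separately, so their levels are not compared with each other. The transgenes were visible in the counts: CycD had 1771 and 1826 CPM in E2F + CycD wings at 44 h, against 30.6 and 27.9 CPM in E2F wings and 27.1 and 27.4 CPM in control wings. E2f1 had 1589 and 1976 CPM in E2F + CycD wings at 44 h, against 3823 and 4418 CPM in E2F wings and 104 and 133 CPM in control wings. Dp had 86.1 and 90.7 CPM in E2F + CycD wings at 44 h, against 1093 and 1250 CPM in E2F wings and 65.4 and 57.8 CPM in control wings. At 24 h it had 154 and 129 CPM in E2F + CycD wings, 809 and 727 CPM in E2F wings and 79.7 and 79.3 CPM in control wings. In E2F + CycD wings Dp was above control by log2 0.83 at 24 h (edgeR adjusted p = 0.00238) and 0.52 at 44 h (0.0116), under the log2 threshold of 1 set for a call. The addition of CycD and Cdk4 and the lower E2f1 and Dp of E2F + CycD wings therefore cannot be told apart. A list of 4 tracheal genes (trh, Gasp, serp, verm) summed to 1329 and 1205 CPM in E2F + CycD wings, 1860 and 3662 CPM in E2F wings and 11402 and 12203 CPM in control wings at 44 h, and to 173 to 30589 CPM over the wild-type libraries. At 44 h trh alone had 80 and 80.6, 69.5 and 69.2, and 106 and 125 CPM in that order. The large differences in the sum are therefore those of Gasp, serp and verm, while trh was also highest in control wings. Whether they reflect the amount of tracheal tissue was not tested. A list of 5 neuron genes summed to 376 and 343, 498 and 604, and 824 and 1030 CPM in the same order of 44 h groups, and the part of both lists in the results was not tested. Markers of wing epithelium summed to 1407 to 2414 CPM in transgenic libraries and to 565 to 1600 CPM in wild-type libraries. Despite the label female, the male RNA roX1 had 194 and 9 CPM in the L3 libraries, 54.5 and 25.6 CPM at 6 h, 103 and 49.3 CPM at 18 h, 18.2 and 51.8 CPM at 24 h and 5.58 to 12.8 CPM later in wild-type wings, and 0.875 to 4.64 CPM in transgenic libraries. Muscle and myoblast genes (5) summed to 186 to 387 CPM in transgenic libraries and to 75.9 to 1194 CPM in wild-type libraries, with 328 and 1194 CPM in those of 44 h. Among replicates, the 6 h pair agreed least, with a Pearson correlation of 0.953 over genes, against 0.973 to 0.989 in the other groups. Its sums of the tracheal list were 30589 and 7537 CPM, of which trh had 68.3 and 29 CPM. Chi-square per degree of freedom between the counts of a pair was 114 at 6 h, 91.1 in control wings and 70.1 in E2F wings at 44 h. In the other groups it was 7.39 to 25.2. The part of these differences in the results was not tested.

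Promoters are shown for 5 of the 30 members on chromosome X and arms 2L, 3L and 3R, namely the 3 with the largest rise in E2F + CycD wings at 44 h (pav, Ndc80, aurB) and the 2 with the smallest change there (vtd, Klp10A). Each runs from 250 bases before to 50 bases after the RefSeq start of the gene on Release 6 (dm6), at chr3L:4242484-4242783 (+) for pav, chrX:13612013-13612312 (-) for Ndc80, chr2L:10858045-10858344 (-) for aurB, chr3L:27136275-27136574 (+) for vtd and chrX:11137069-11137368 (-) for Klp10A. Capitals mark matches to the motifs described after the sequences.
pav: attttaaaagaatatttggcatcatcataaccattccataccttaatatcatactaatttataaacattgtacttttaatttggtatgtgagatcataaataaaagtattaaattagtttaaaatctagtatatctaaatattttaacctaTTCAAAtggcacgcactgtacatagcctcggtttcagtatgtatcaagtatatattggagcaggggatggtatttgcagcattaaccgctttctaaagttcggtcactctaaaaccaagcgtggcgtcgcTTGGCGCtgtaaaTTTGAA
Ndc80: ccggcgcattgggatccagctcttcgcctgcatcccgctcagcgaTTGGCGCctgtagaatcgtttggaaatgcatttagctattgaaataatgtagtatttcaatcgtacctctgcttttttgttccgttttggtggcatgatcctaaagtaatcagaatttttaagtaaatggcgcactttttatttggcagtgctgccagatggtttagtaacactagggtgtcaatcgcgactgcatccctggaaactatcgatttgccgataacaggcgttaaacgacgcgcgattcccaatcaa
aurB: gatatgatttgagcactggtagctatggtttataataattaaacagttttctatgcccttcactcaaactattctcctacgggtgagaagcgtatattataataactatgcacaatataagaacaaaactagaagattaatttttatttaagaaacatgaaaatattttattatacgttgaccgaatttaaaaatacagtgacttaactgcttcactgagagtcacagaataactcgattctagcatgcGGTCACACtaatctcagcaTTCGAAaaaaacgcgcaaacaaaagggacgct
vtd: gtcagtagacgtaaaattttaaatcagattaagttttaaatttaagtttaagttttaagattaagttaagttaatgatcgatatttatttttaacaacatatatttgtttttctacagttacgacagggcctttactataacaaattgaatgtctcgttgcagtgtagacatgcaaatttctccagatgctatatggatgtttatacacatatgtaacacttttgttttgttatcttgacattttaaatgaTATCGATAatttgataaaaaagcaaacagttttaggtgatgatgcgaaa
Klp10A: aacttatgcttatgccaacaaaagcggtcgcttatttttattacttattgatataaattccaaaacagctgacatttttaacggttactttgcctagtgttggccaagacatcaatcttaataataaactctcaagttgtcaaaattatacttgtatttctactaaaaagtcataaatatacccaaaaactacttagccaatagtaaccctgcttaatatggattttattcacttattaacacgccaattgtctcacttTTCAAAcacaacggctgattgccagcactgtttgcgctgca

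Motifs were searched on both strands in these windows. An E2F site, written as TTTCCCGC, TTTCGCGC, TTTGCCGC or TTTGGCGC, was in 2 of 42 member promoters (4.76%), cal1 and SMC2, against 872 of 13667 promoters of protein-coding genes (6.38%). The DNA replication-related element TATCGATA was in 8 (19%), against 9.21% of all promoters, and among the sequences shown only vtd has it. The core of Motif 1, GGTCACAC, was in 9 (21.4%), against 7.67%, and is seen in aurB. After these counts were known, 2 looser searches were added. A shorter E2F core, the same letters without the first T, was in 9 members (21.4%), against 13.9% of all promoters, and is seen once in pav and once in Ndc80. A sequence like the cell cycle homology region, TTTGAA or TTCGAA, was in 25 members (59.5%), against 48.2%, and is seen in pav, aurB and Klp10A. A match is only these letters in this window, and says nothing of binding.

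In the wild-type time course, members were high at L3 and 18 h, low at 6 h and lowest at 36 h or 44 h. Summed over the 42 genes, levels were 2840 and 2662 CPM at L3, 1721 and 1199 CPM at 6 h, 2796 and 2882 CPM at 18 h, 1149 and 1097 CPM at 24 h, 662 and 696 CPM at 36 h and 709 and 686 CPM at 44 h. The 2 libraries of 18 h stood above both libraries of every stage except L3. Relative to its own highest mean, the median member stood at 88.9% in L3 wings and 39.1% in 6 h wings, at 98.3% in 18 h wings and 20.6% in 24 h wings, and finally at 3.95% in 36 h wings and 5.35% in 44 h wings. The highest mean lay at 18 h for 21 members and at L3 for 15, and the lowest at 36 h for 27 and at 44 h for 9. In a test over all stages, 40 of 42 members changed, where 74.7% of all genes tested did, and the other 2 were Klp10A and vtd, a result that depends on the scaling. In whole wings, fewer dividing cells and less RNA per cell cannot be told apart, and nothing in the labels says that the 2 libraries of a group came from separate animals, so each p-value measures the spread between these libraries. Calls required an adjusted p below 0.05 (edgeR quasi-likelihood test, Benjamini-Hochberg over all genes tested) together with a log2 difference of more than 1 in size.

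**Figure D1:**
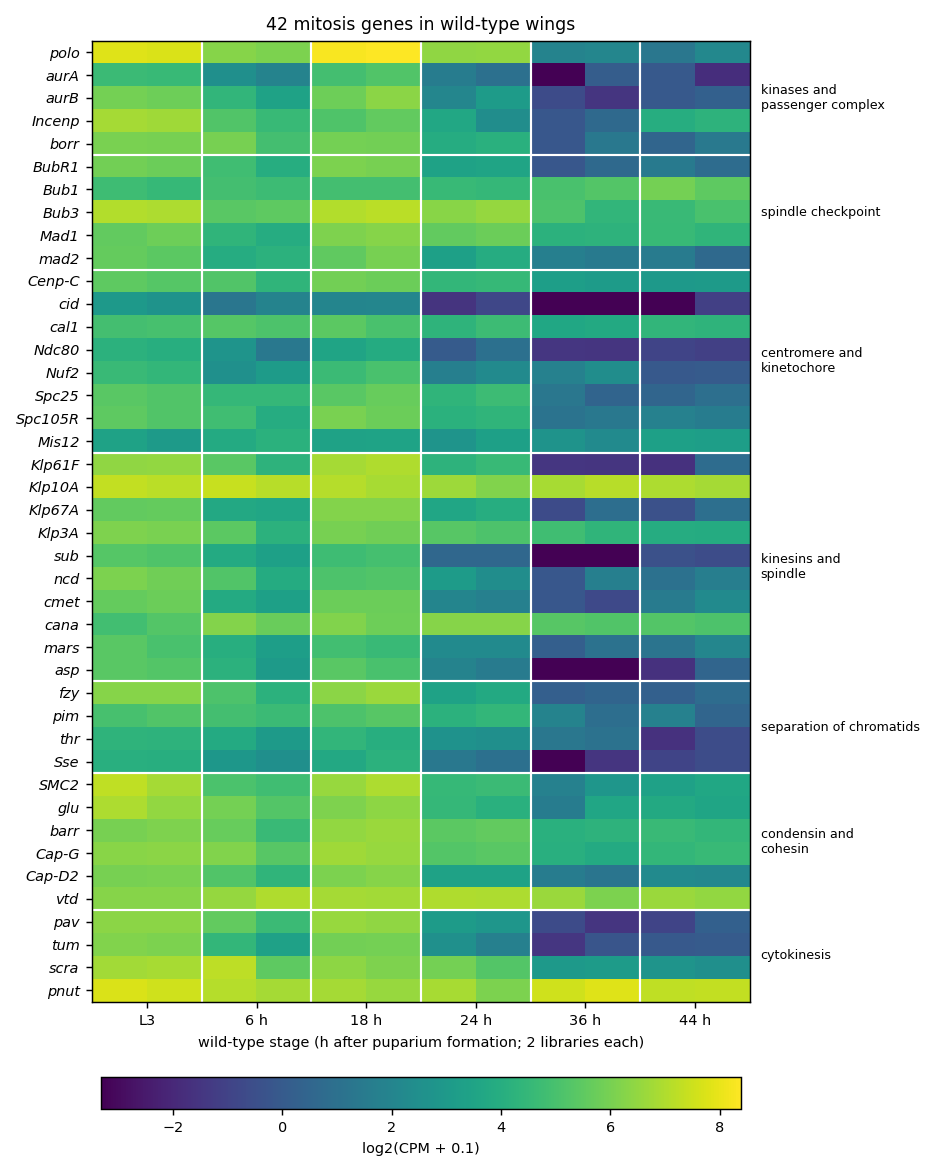
Levels of the 42 members in the 12 wild-type libraries, as log2 of CPM plus 0.1, with genes in rows by role and libraries in columns by stage. Most rows are bright at L3 and 18 h and dark at 36 h and 44 h, and Bub1, Klp10A, vtd and pnut keep a similar shade throughout.

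Between neighbouring stages, 26 members were lower at 6 h than at L3, where 15.1% of all genes tested were lower, with a median log2 fold change of -1.27 over the 42 members and 0.00 over all genes. At 18 h, 24 members were higher than at 6 h, where 14.9% of all genes were, with medians of 1.23 and 0.02. At 24 h, 30 members were lower than at 18 h, where 5.1% of all genes were lower and 4.14% higher, with medians of -1.99 and 0.03. At 36 h, 32 members were lower than at 24 h, where 11.1% of all genes were, with medians of -2.13 (-2.07 with members at 0 counts set at their bound) and -0.07, and 1 was higher (15.3% of all genes). At 44 h, 4 members were higher than at 36 h (10.8% of all genes) and 2 were lower (9.51%), or 3 and 3 with libraries scaled by their totals. With libraries scaled by their totals, 34 members and 31.6% of all genes were then lower at 6 h, 29 members and 28.5% higher at 18 h, and 34 members and 20.1% lower at 36 h. The fall at 6 h, the rise at 18 h and the fall at 24 h were all called for the same 19 members, and 27 members fell at both 24 h and 36 h. Such joint calls were not counted over all genes, and their share cannot exceed the 5.1% that were lower at 24 h.

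Among the kinases and the chromosomal passenger complex, whose catalytic subunit is Aurora B, 4 of 5 genes fell at 6 h, 3 rose at 18 h and all 5 fell at both 24 h and 36 h. The mitotic kinase polo had 226 and 214 CPM at L3, 75.8 and 67.2 CPM at 6 h, 313 and 336 CPM at 18 h, 87.5 and 90.5 CPM at 24 h, 3.72 and 4.03 CPM at 36 h and 2.39 and 4.28 CPM at 44 h. No pair of stages up to 36 h overlapped, and 36 h and 44 h did. The log2 fold change of polo was -1.62 ± 0.21 (SE) at 6 h (edgeR adjusted p = 5.3e-05), 2.18 ± 0.21 at 18 h (5.0e-06), -1.87 ± 0.21 at 24 h (1.8e-04) and -4.51 ± 0.26 at 36 h (2.7e-07). The kinase of centrosomes and spindle poles, aurA, had the largest fall at 6 h and the largest rise at 18 h of all members. It had 25.1 and 23.8 CPM at L3, 5.64 and 3.7 CPM at 6 h, 29.5 and 36.5 CPM at 18 h, 2.93 and 1.89 CPM at 24 h, 0 and 1.01 CPM at 36 h and 0.869 and 0.186 CPM at 44 h. It changed by -2.35 ± 0.39 at 6 h against L3 (edgeR adjusted p = 4.3e-04), 2.77 ± 0.39 at 18 h against 6 h (1.2e-04) and -3.62 ± 0.42 at 24 h against 18 h (2.3e-04) on the log2 scale. The 36 h call of aurA (log2 -2.30 ± 0.75, edgeR adjusted p = 0.03) was lost without 24 h replicate 1 (-1.82) or 36 h replicate 1 (-1.37). The passenger complex kinase aurB had 62.1 and 55.2 CPM at L3, 20.9 and 10.5 CPM at 6 h, 55.4 and 82.9 CPM at 18 h, 3.99 and 8.48 CPM at 24 h, 0.531 and 0.252 CPM at 36 h and 0.869 and 1.12 CPM at 44 h. The fall at 24 h was -3.67 ± 0.39 on the log2 scale (edgeR adjusted p = 1.2e-04). At 36 h aurB had 3 counts against 52 at 24 h, a ratio of 12.6 (95% exact interval 4.08 to 63.1, counting error only). The passenger subunit Incenp was 1 of the 4 members that rose at 44 h, with 15.6 and 19.1 CPM at 44 h against 0.797 and 1.51 CPM at 36 h, a log2 fold change of 3.88 ± 0.50 (edgeR adjusted p = 8.9e-05).

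Of the spindle checkpoint genes, which hold back anaphase, 4 of 5 fell at 6 h and rose at 18 h, 2 fell at 24 h and 4 fell at 36 h. BubR1, an inhibitor of the anaphase-promoting complex, had 59.2 and 54.9 CPM at L3, 27.8 and 15.4 CPM at 6 h, 68.6 and 63.9 CPM at 18 h, 10.8 and 11.3 CPM at 24 h, 0.797 and 1.51 CPM at 36 h and 2.61 and 1.67 CPM at 44 h. Its libraries at L3 and 18 h lay above all others. BubR1 changed by -1.38 ± 0.26 at 6 h (edgeR adjusted p = 9.0e-04), 1.60 ± 0.26 at 18 h (3.2e-04), -2.59 ± 0.28 at 24 h (1.3e-04) and -3.21 ± 0.43 at 36 h (1.1e-04) on the log2 scale. Bub3 and Mad1 fell later than BubR1 and mad2, with log2 fold changes of -0.69 and -0.53 at 24 h that did not pass the test and of -1.61 and -1.44 at 36 h that did. The kinase Bub1 was the exception, with 22.2 to 30 CPM in the 8 libraries from L3 to 24 h, 32.1 and 38 CPM at 36 h and 60.6 and 44.1 CPM at 44 h. No step between neighbouring stages was called for Bub1, and its call in the test over all stages was lost without 44 h replicate 1 (log2 0.96, adjusted p = 0.0229).

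Of the centromere and kinetochore genes, 3 of 8 were lower at 6 h, 4 were higher at 18 h, 6 were lower at 24 h and 3 were lower at 36 h. The centromeric histone cid had 7.75 and 6.39 CPM at L3, 2.3 and 3.7 CPM at 6 h, 3.92 and 4.11 CPM at 18 h, 0.235 and 0.471 CPM at 24 h, 0 and 0 CPM at 36 h and 0 and 0.372 CPM at 44 h. At 24 h cid had 3 counts, against 49 at 18 h, a ratio of 14.1 (95% exact interval 4.55 to 70.8). The 24 h call for cid (edgeR adjusted p = 0.00548) was lost without 24 h replicate 1 (adjusted p = 0.174), and its 6 h call (log2 -1.28 ± 0.47, adjusted p = 0.0419) was lost without any 1 of the 4 libraries compared (0.0536 to 0.279), with DESeq2 (0.245), with RLE scaling (0.051) and without the filter on low counts (0.0549). Ndc80, which holds microtubules at the outer kinetochore, had 18.1 and 16.3 CPM at L3, 6.69 and 2.46 CPM at 6 h, 11.3 and 14.6 CPM at 18 h, 0.939 and 1.89 CPM at 24 h, 0.266 and 0.252 CPM at 36 h and 0.435 and 0.372 CPM at 44 h. Its stages did not overlap from L3 to 36 h, and it changed by -1.85 ± 0.37 at 6 h (edgeR adjusted p = 0.00162), 1.41 ± 0.38 at 18 h (0.00925) and -3.42 ± 0.47 at 24 h (7.6e-04) on the log2 scale. The rise of Ndc80 at 18 h was not called without 6 h replicate 2 (log2 0.98, adjusted p = 0.0375) or without 18 h replicate 2 (1.24, adjusted p = 0.065). Nuf2, the partner of Ndc80 in the same complex, had its last fall later: 3.28 and 4.71 CPM at 24 h, 3.45 and 5.29 CPM at 36 h and 0.869 and 0.929 CPM at 44 h, with a log2 fold change of -2.25 ± 0.45 at 44 h against 36 h (edgeR adjusted p = 0.00258). Spc25 of the same complex fell chiefly at 36 h (log2 -3.63 ± 0.32, adjusted p = 4.2e-06). Mis12, of the inner kinetochore, and cal1, which loads Cid, were called between no neighbouring stages, with 4.78 to 17.6 CPM and 12.5 to 44 CPM over the wild-type libraries. Some steps missed only the fold threshold. These were the falls of cal1 at 24 h (log2 -0.78 ± 0.22, edgeR adjusted p = 0.0359) and 36 h (-0.77 ± 0.24, 0.0239) and the rise of Mis12 at 6 h (0.72 ± 0.27, 0.0407).

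In the kinesin and spindle group, 8 of 10 genes fell at 6 h, 6 rose at 18 h, 7 fell at 24 h and 8 fell at 36 h. Klp61F, the kinesin-5 that slides spindle microtubules apart, had 87.3 and 90.6 CPM at L3, 42.6 and 19.1 CPM at 6 h, 113 and 128 CPM at 18 h, 18.7 and 24 CPM at 24 h, 0.266 and 0.252 CPM at 36 h and 0.217 and 1.67 CPM at 44 h. Its 18 h libraries were the highest, and it changed by -1.51 ± 0.35 at 6 h (edgeR adjusted p = 0.00368), 1.94 ± 0.35 at 18 h (7.3e-04) and -2.53 ± 0.37 at 24 h (0.00105) on the log2 scale. At 36 h it had 2 counts against 210 at 24 h, a ratio of 76.3 (95% exact interval 20.9 to 634). The kinesin-6 sub, of the meiotic and central spindle, had 26.6 and 30.5 CPM at 18 h, 1.41 and 1.41 CPM at 24 h, 0 and 0 CPM at 36 h and 0.652 and 0.558 CPM at 44 h. Its fall at 24 h, -4.31 ± 0.32 on the log2 scale (edgeR adjusted p = 2.9e-05), was the largest of any member there. The rise of sub at 44 h rested on 6 counts against 0, at least 1.55-fold higher (edgeR adjusted p = 0.0348), and was not called without any 1 of the 4 libraries compared (0.0777 to 0.165) or with DESeq2 (0.0849). The spindle pole gene asp had 3.64 and 2.83 CPM at 24 h, 0 and 0 CPM at 36 h and 0.217 and 1.3 CPM at 44 h. At 36 h it was at least 8.96-fold lower than at 24 h, from 0 counts against 37 (edgeR adjusted p = 0.00244). The kinetochore kinesin genes cmet and cana, which start 778 bases apart in opposite directions, differed: cmet fell by 3.87 at 24 h on the log2 scale (edgeR adjusted p = 2.1e-05), whereas cana changed by 0.26 (0.484) and had its highest mean at 24 h, with 77.2 and 76.8 CPM. At 44 h cmet had 2.82 and 4.83 CPM, against 0.797 and 0.504 CPM at 36 h, a log2 fold change of 2.54 ± 0.48 (edgeR adjusted p = 0.00172). Klp10A, a kinesin-13 that takes microtubules apart, had 72.6 to 168 CPM in the 12 libraries and was called at no step.

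In chromatid separation, 2 of 4 genes fell at 6 h, 2 rose at 18 h, 3 fell at 24 h and all 4 fell at 36 h. The Cdc20 activator fzy had 77.9 and 77.2 CPM at L3, 34.7 and 18.2 CPM at 6 h, 82.3 and 97.6 CPM at 18 h, 10.8 and 13.7 CPM at 24 h, 1.06 and 1.26 CPM at 36 h and 1.09 and 1.67 CPM at 44 h. It fell and rose with polo, with log2 fold changes of -1.53 ± 0.26 at 6 h (edgeR adjusted p = 5.2e-04), 1.74 ± 0.26 at 18 h (2.0e-04), -2.92 ± 0.29 at 24 h (7.9e-05) and -3.32 ± 0.44 at 36 h (1.1e-04). The securin pim had 31.6 and 36.9 CPM at L3, 29.7 and 25.6 CPM at 6 h, 35.2 and 40.6 CPM at 18 h, 18.3 and 21.2 CPM at 24 h, 3.72 and 1.76 CPM at 36 h and 3.48 and 1.3 CPM at 44 h. Its level at 6 h was near that at L3 (log2 -0.30 ± 0.28, edgeR adjusted p = 0.408), its change at 24 h was -0.95 ± 0.29 (0.0461), short of the fold threshold, and its one called step was at 36 h (-2.83 ± 0.38, 1.2e-04). The separase subunit thr had 2.39 and 2.01 CPM at 36 h, and it fell again to 0.217 and 0.558 CPM at 44 h, by 2.39 ± 0.60 on the log2 scale (edgeR adjusted p = 0.0103). That fall of thr was not called without 36 h replicate 1 (adjusted p = 0.053) or 44 h replicate 1 (0.0728).

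Among condensin and cohesin genes, 3 of 6 were lower at 6 h, 3 were higher at 18 h and 5 were lower at both 24 h and 36 h. The 24 h call of barr (log2 -1.07, edgeR adjusted p = 0.0215) was lost when any library of 18 h or 24 h was left out (-1.16 to -1.01). That of glu at 24 h was lost without 18 h replicate 2 (-1.81) or 24 h replicate 1 (-2.16). Its 36 h call was lost without either 24 h library (-1.18 and -1.51) or 36 h replicate 1 (-0.71). SMC2, a core condensin ATPase, had 153 and 112 CPM at L3, 33.4 and 28 CPM at 6 h, 96.6 and 123 CPM at 18 h, 22.9 and 25.5 CPM at 24 h, 3.45 and 7.05 CPM at 36 h and 10.4 and 12.6 CPM at 44 h. It changed by -2.11 ± 0.27 at 6 h (edgeR adjusted p = 5.1e-05), 1.83 ± 0.27 at 18 h (1.4e-04), -2.19 ± 0.27 at 24 h (3.6e-04) and -2.18 ± 0.32 at 36 h (2.6e-04) on the log2 scale. At 44 h SMC2 was higher than at 36 h (1.13 ± 0.33, adjusted p = 0.0237), a call lost without 36 h replicate 1 (0.176), 44 h replicate 1 (0.0504) or 44 h replicate 2 (0.137). Per length, the condensin subunits barr and Cap-G averaged 6.17 and 3.48 CPM per kilobase of exon (RPKM) at 36 h, where SMC2, glu and Cap-D2 averaged 1.42, 1.69 and 0.603 RPKM. The cohesin kleisin vtd, also called Rad21, had 67 to 128 CPM in all 12 libraries, and its steps had log2 fold changes between -0.60 and 0.53 with none called.

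For cytokinesis, pav and tum fell at 6 h, rose at 18 h and fell at 24 h and 36 h, and scra and pnut were called at 36 h alone. At 6 h pnut missed only the fold threshold (log2 -0.68 ± 0.25, edgeR adjusted p = 0.0388). The kinesin-6 of centralspindlin, pav, had 81.4 and 83 CPM at L3, 47 and 25 CPM at 6 h, 96 and 88.3 CPM at 18 h, 8.56 and 7.07 CPM at 24 h, 0.531 and 0.252 CPM at 36 h and 0.435 and 1.12 CPM at 44 h. It rose by 1.34 ± 0.27 at 18 h (edgeR adjusted p = 0.00149) and changed by -3.51 ± 0.31 at 24 h (4.4e-05) on the log2 scale, and its fall of 1.18 ± 0.27 at 6 h (0.00342) was under the fold threshold without 6 h replicate 2 (log2 -0.85). At 36 h pav had 3 counts against 88 at 24 h, a ratio of 21.3 (95% exact interval 7.06 to 105). The anillin gene scra was called once, at 36 h (log2 -2.63 ± 0.48, edgeR adjusted p = 0.00109). The septin pnut, which has roles outside division, rose at 36 h, with 184 and 228 CPM at 36 h against 116 and 67.4 CPM at 24 h (log2 1.16 ± 0.25, edgeR adjusted p = 0.00346). That rise of pnut was under the fold threshold without 24 h replicate 2 (0.86) and when libraries were scaled by their totals, and its call over all stages also fell to 0.98 without that library.

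**Figure D2:**
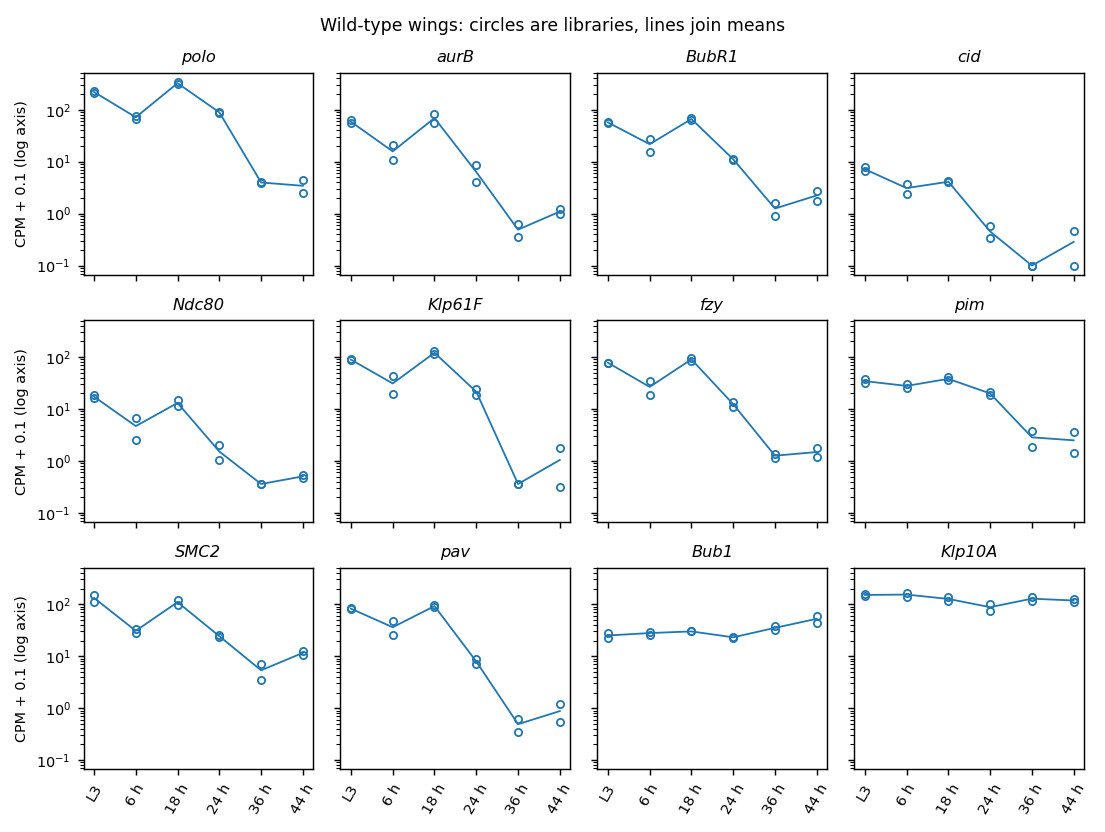
Level as CPM plus 0.1 on a log axis against stage, from L3 to 44 h APF, for 12 members, with a circle for each of the 2 wild-type libraries and a line through the stage means. Of the other 10 genes, all lie below 10 CPM at 36 h and all but pim and cid are called lower at 6 h and higher at 18 h, while Bub1 and Klp10A stay within 22.2 to 60.6 CPM and 72.6 to 168 CPM.

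With E2F activity in the transgenic wings, most members were higher than in control wings at both stages. Their summed levels at 24 h were 3345 and 2992 CPM in E2F + CycD wings and 3109 and 3059 CPM in E2F wings, against 1075 and 999 CPM in control wings. At 44 h the sums were 1866 and 1719 CPM in E2F + CycD wings and 1250 and 1184 CPM in E2F wings, against 522 and 588 CPM in control wings. The 3 genotypes did not overlap at 44 h, and at 24 h E2F + CycD and E2F wings overlapped. At 24 h, 34 of 42 members were higher in E2F + CycD wings than in control wings, where 5.67% of all genes tested were, and 32 were higher in E2F wings, where 9.88% were. At 44 h, 37 were higher in E2F + CycD wings, where 15.1% of all genes were, and 30 were higher in E2F wings, where 12.6% were, with 1 member lower in E2F wings (10.5% of all genes). The median log2 fold change over the 42 members was 2.44 in E2F + CycD wings and 2.55 in E2F wings at 24 h, and 3.40 and 2.23 at 44 h, where those over all genes lay between -0.07 and 0.01. With libraries scaled by their totals, 41 members and 42.6% of all genes were higher in E2F + CycD wings at 44 h, and 34 members and 25.7% in E2F wings, so the members' counts stand against a much larger background under that scaling. Both genotypes share the control libraries at each stage. In all 4 comparisons 28 members were called higher. This joint call was not counted over all genes, and its share cannot exceed the 5.67% higher in E2F + CycD wings at 24 h. Another 4 members (Mis12, Klp10A, barr, vtd) were called higher in none, although barr missed only the fold threshold in E2F + CycD wings. Of the 40 members with no E2F site in the promoter window, 35 were higher than control in E2F + CycD wings at 44 h, as were both members with a site. At 24 h the E2F genotype gave 30 of these 40 and again both with a site.

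In control wings alone, 30 members were lower at 44 h than at 24 h, where 16.3% of all genes tested were, with a median log2 fold change of -2.26 over the members (-1.99 with cid at its bound) and -0.03 over all genes. Scaled by library totals, 38 members and 45.4% of all genes were lower. polo had 0.977 and 1.69 CPM in control wings at 44 h, against 46 and 43.3 CPM at 24 h (log2 -5.07 ± 0.26, edgeR adjusted p = 4.0e-08). cid had 0 counts at 44 h against 11 at 24 h, at least 1.95-fold lower, and its call (edgeR adjusted p = 0.0132) was lost without 24 h replicate 2 (0.0613) or 44 h replicate 1 (0.063). Because so many members were near 0 in control wings at 44 h, fold changes there depend on very few control counts. Where a member with 1 to 3 control counts is described over control at 44 h, a ratio with an exact interval is given.

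**Figure D3:**
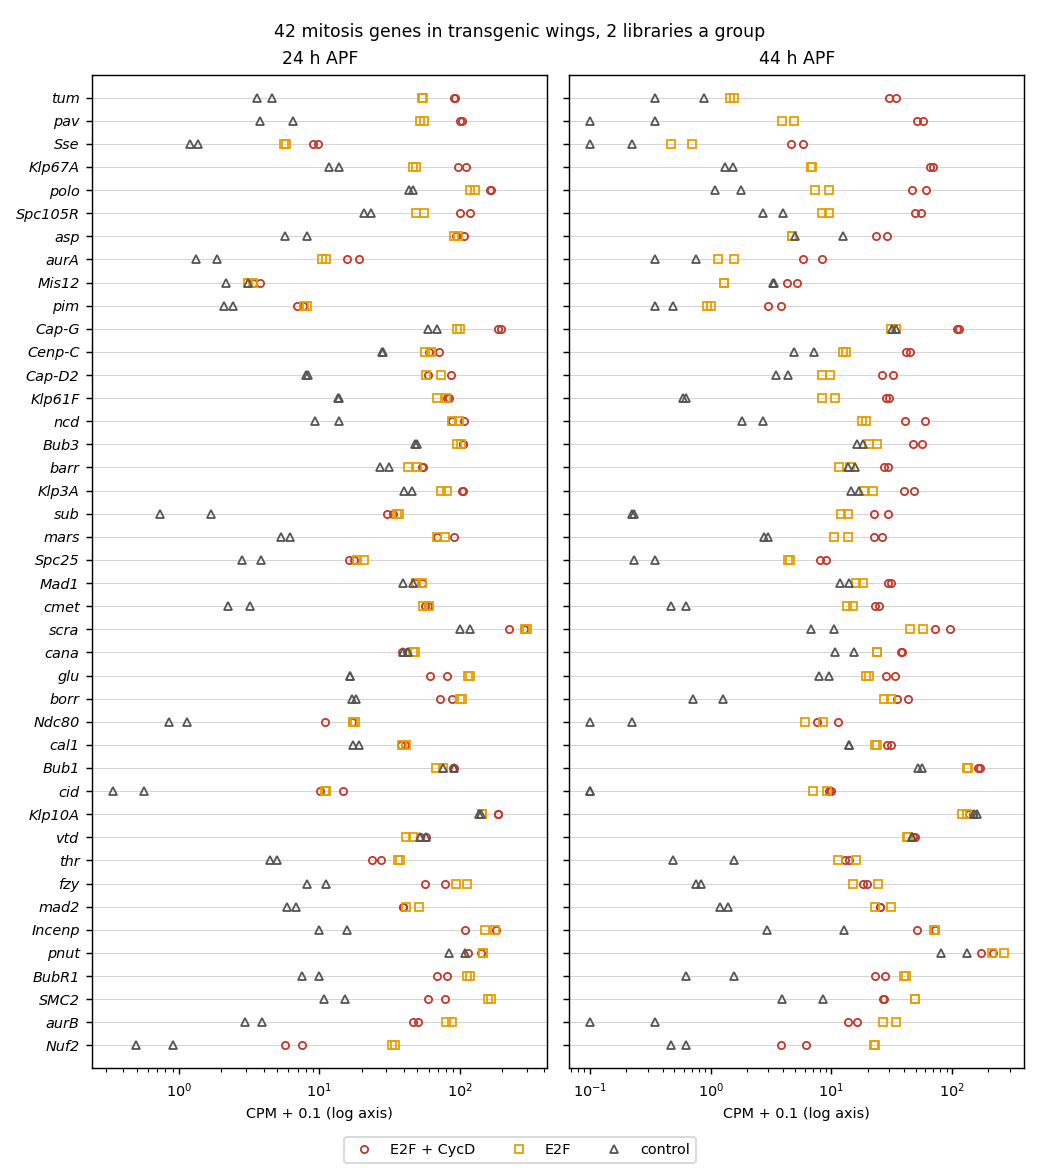
Level as CPM plus 0.1 on a log axis of each of the 42 members at 24 h and at 44 h, with a point for each library of E2F + CycD, E2F and control wings, ordered from the highest to the lowest ratio of E2F + CycD over E2F wings at 44 h (tum at the top, Nuf2 at the bottom). At 24 h both transgenic genotypes sit mostly together and above control, and at 44 h they part in the upper rows, where tum had 34.3 and 29.9 CPM in E2F + CycD wings against 1.35 and 1.46 CPM in E2F wings.

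All 5 kinase and passenger complex genes were higher in all 4 comparisons. polo had 167 and 165 CPM in E2F + CycD wings and 128 and 118 CPM in E2F wings at 24 h, against 46 and 43.3 CPM in control wings. At 44 h it had 61.3 and 46.7 CPM in E2F + CycD wings and 9.46 and 7.21 CPM in E2F wings, against 0.977 and 1.69 CPM in control wings. The 3 genotypes were separate at both stages, with log2 fold changes over control of 1.89 ± 0.17 (edgeR adjusted p = 1.5e-05) in E2F + CycD and 1.46 ± 0.17 (6.9e-05) in E2F wings at 24 h, and of 5.34 ± 0.25 (7.3e-08) and 2.65 ± 0.28 (2.4e-05) at 44 h. For aurB the E2F libraries were the highest, with 50 and 46 CPM in E2F + CycD wings and 87.3 and 80.3 CPM in E2F wings at 24 h, against 3.81 and 2.83 CPM in control wings. At 44 h aurB had 16.1 and 13.6 CPM in E2F + CycD wings and 26.5 and 34.1 CPM in E2F wings, against 0.244 and 0 CPM in control wings. The 2 control counts of aurB at 44 h give ratios of 118 (95% exact interval 32.6 to 979.7) for E2F + CycD and 238 (65.6 to 1967) for E2F wings. The rise of aurA in E2F wings at 44 h lay near the threshold, with 1.05 and 1.46 CPM against 0.244 and 0.649 CPM in control wings (log2 1.48 ± 0.54, edgeR adjusted p = 0.0471). It was not called without E2F replicate 1 (0.0627), E2F replicate 2 (0.163) or control replicate 1 (0.295), nor with DESeq2 (0.0625), a replicate block (0.0548) or only the groups compared (0.12).

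Among the spindle checkpoint genes, BubR1 and mad2 were higher in all 4 comparisons. BubR1 had 81.1 and 68.6 CPM in E2F + CycD wings and 112 and 119 CPM in E2F wings at 24 h, against 9.76 and 7.46 CPM in control wings. At 44 h it had 22.8 and 28 CPM in E2F + CycD wings and 41.5 and 40.2 CPM in E2F wings, against 1.47 and 0.519 CPM in control wings. Both transgenic genotypes were above control without overlap, by 3.13 ± 0.21 (edgeR adjusted p = 1.3e-06) and 3.75 ± 0.21 (2.3e-07) at 24 h and 4.65 ± 0.30 (4.7e-07) and 5.33 ± 0.30 (3.0e-07) at 44 h on the log2 scale, E2F + CycD first. Bub1 was called at 44 h and not at 24 h, with 163 and 169.9 CPM in E2F + CycD wings and 132 and 135 CPM in E2F wings, against 51.9 and 55.8 CPM in control wings. At 24 h Bub1 had 90.8 and 88.7, 67.3 and 75.4, and 75.4 and 90.7 CPM in the same order. The difference between the stages was itself called for Bub1, at 1.52 ± 0.18 in E2F + CycD wings (edgeR adjusted p = 1.7e-04) and 1.53 ± 0.18 in E2F wings (3.1e-04).

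In the kinetochore, cid, Cenp-C and the Ndc80 complex genes were higher in all 4 comparisons. cid had 14.6 and 10 CPM in E2F + CycD wings and 11 and 10.8 CPM in E2F wings at 24 h, against 0.238 and 0.462 CPM in control wings, and its log2 fold change of 5.04 ± 0.35 in E2F + CycD wings (edgeR adjusted p = 4.1e-06) was the largest of the members there. At 44 h cid had 9.77 and 9.43 CPM in E2F + CycD wings and 9.16 and 6.94 CPM in E2F wings, against 0 counts in both control libraries. With 3 counts over the control group as the floor, cid was at least 50.9-fold higher in E2F + CycD wings (edgeR adjusted p = 2.1e-06) and at least 43.2-fold higher in E2F wings (6.0e-06). Ndc80 had 17 and 10.8 CPM in E2F + CycD wings and 17.3 and 17.9 CPM in E2F wings at 24 h, against 1.03 and 0.751 CPM in control wings (log2 3.98 ± 0.37 and 4.32 ± 0.36, edgeR adjusted p = 1.6e-05 and 4.7e-06). At 44 h Ndc80 had 11.3 and 7.5 CPM in E2F + CycD wings and 8.49 and 5.94 CPM in E2F wings, against 1 count in control wings, a ratio of 151 (95% exact interval 26.9 to 5972) for E2F + CycD wings and of 117 (20.7 to 4630) for E2F wings. The E2F + CycD and E2F libraries overlapped at 44 h for Ndc80, and for cid they did not, with 9.43 and 9.16 CPM nearest each other. Nuf2 had the largest rise of any member in E2F wings at 24 h, with 34.2 and 33 CPM against 0.397 and 0.809 CPM in control wings (log2 5.72 ± 0.32, edgeR adjusted p = 2.0e-07). In E2F + CycD wings Nuf2 had 5.62 and 7.47 CPM at 24 h, a log2 fold change of 3.36 ± 0.34 over control (edgeR adjusted p = 3.6e-05). Mis12 was the one member lower than control in E2F wings at 44 h, with 1.2 and 1.19 CPM against 3.18 and 3.25 CPM in control wings (log2 -1.42 ± 0.34, edgeR adjusted p = 0.00599). In E2F + CycD wings Mis12 had 4.23 and 5.13 CPM at 44 h (log2 0.54 ± 0.29 over control, adjusted p = 0.149). Its fall in E2F wings was not called when libraries were scaled by their totals.

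Of the kinesins and spindle genes, Klp61F, Klp67A, sub, ncd, cmet and mars were higher in all 4 comparisons. Klp61F had 81.1 and 83.6 CPM in E2F + CycD wings and 68.7 and 79.4 CPM in E2F wings at 24 h, against 13.7 and 13.5 CPM in control wings. At 44 h it had 30.1 and 28.1 CPM in E2F + CycD wings and 10.7 and 8.31 CPM in E2F wings, against 0.489 and 0.519 CPM in control wings. Its log2 fold changes over control were 2.60 ± 0.15 in E2F + CycD (edgeR adjusted p = 3.7e-07) and 2.45 ± 0.14 in E2F wings (3.0e-07) at 24 h, and 5.83 ± 0.24 (5.2e-08) and 4.22 ± 0.27 (7.3e-07) at 44 h. sub had 2 control counts at 44 h, which gave ratios of 206 (95% exact interval 57 to 1707) for E2F + CycD and 102 (28 to 847) for E2F wings. asp was higher in both genotypes at 24 h, with 108 and 93.8 CPM in E2F + CycD wings and 91.4 and 96.8 CPM in E2F wings, against 8.1 and 5.55 CPM in control wings. At 44 h asp had 28.8 and 23.4 CPM in E2F + CycD wings and 4.58 and 4.66 CPM in E2F wings, against 12.3 and 4.93 CPM in control wings, so that only E2F + CycD wings were called higher (log2 1.59 ± 0.30, edgeR adjusted p = 0.00109). Without control replicate 2, asp was called lower in E2F wings at 44 h (log2 -1.39).

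The 4 genes of chromatid separation were higher in both genotypes at 24 h, and 3 of them in both at 44 h. fzy had 78.9 and 56.3 CPM in E2F + CycD wings and 112 and 93.5 CPM in E2F wings at 24 h, against 11 and 8.09 CPM in control wings. At 44 h it had 19.7 and 18.1 CPM in E2F + CycD wings and 24.4 and 15.1 CPM in E2F wings, against 0.733 and 0.649 CPM in control wings. Over control, fzy was up by 2.84 ± 0.25 (edgeR adjusted p = 1.1e-05) in E2F + CycD and 3.44 ± 0.25 (1.6e-06) in E2F wings at 24 h, and by 4.75 ± 0.40 (2.2e-06) and 4.82 ± 0.40 (3.7e-06) at 44 h on the log2 scale. The securin pim had 6.81 and 7.59 CPM in E2F + CycD wings and 7.65 and 8.05 CPM in E2F wings at 24 h, against 1.98 and 2.31 CPM in control wings. At 44 h pim had 2.86 and 3.72 CPM in E2F + CycD wings and 0.826 and 0.913 CPM in E2F wings, against 0.244 and 0.389 CPM in control wings. It was called in both genotypes at 24 h (log2 1.73 ± 0.26 and 1.86 ± 0.26, edgeR adjusted p = 7.4e-04 and 2.7e-04) and at 44 h in E2F + CycD wings (3.35 ± 0.41, 4.0e-05), where E2F wings gave 1.44 ± 0.50 (0.061). The separase Sse had 0.601 and 0.365 CPM in E2F wings at 44 h, from 12 counts against 1 count in control wings, a ratio of 7.86 (95% exact interval 1.16 to 336). It was called there (edgeR adjusted p = 0.0257), and this was lost without E2F replicate 1 (0.172), control replicate 2 (0.186) or with DESeq2 (0.115).

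Among condensin and cohesin genes, SMC2, glu and Cap-D2 were called higher in all 4 comparisons and barr and vtd in none. In E2F + CycD wings barr was just under the fold threshold, at log2 0.90 at 24 h (edgeR adjusted p = 0.00135) and 0.95 at 44 h (4.1e-04). The 44 h rise of barr was called without the filter on low counts (1.01) and with only the groups compared (1.04). In E2F wings at 44 h barr had 14.2 and 11.4 CPM, against 13.7 and 15.7 CPM in control wings. SMC2 had 77.8 and 59.1 CPM in E2F + CycD wings and 166 and 159 CPM in E2F wings at 24 h, against 15.2 and 10.7 CPM in control wings. At 44 h it had 27.4 and 26.6 CPM in E2F + CycD wings and 49.6 and 49.5 CPM in E2F wings, against 3.79 and 8.44 CPM in control wings. The genotypes did not overlap at either stage, with log2 fold changes over control of 2.41 ± 0.26 (edgeR adjusted p = 5.2e-05) and 3.66 ± 0.27 (1.4e-06) at 24 h and 2.15 ± 0.29 (8.0e-05) and 3.03 ± 0.29 (1.1e-05) at 44 h, E2F + CycD first. Cap-G was called in E2F + CycD wings at both stages (log2 1.58 ± 0.12 and 1.76 ± 0.13, edgeR adjusted p = 4.7e-06 and 9.8e-07), where E2F wings gave 0.62 ± 0.12 (0.00355) and -0.01 ± 0.13 (0.976). vtd had 41.4 to 57.6 CPM in the 12 transgenic libraries, and its log2 fold changes over control lay between -0.31 and 0.05.

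In cytokinesis, pav, tum and scra were higher in all 4 comparisons. pav had 104 and 100.1 CPM in E2F + CycD wings and 55.2 and 51.8 CPM in E2F wings at 24 h, against 6.43 and 3.7 CPM in control wings. At 44 h it had 57.5 and 51.1 CPM in E2F + CycD wings and 3.83 and 4.84 CPM in E2F wings, against 0.244 and 0 CPM in control wings. At 24 h its log2 fold changes were 4.35 ± 0.25 (edgeR adjusted p = 4.0e-07) in E2F + CycD and 3.42 ± 0.24 (1.2e-06) in E2F wings. At 44 h the 2 control counts gave ratios of 433 (95% exact interval 119.7 to 3578) for E2F + CycD and 34.1 (9.19 to 285) for E2F wings. tum, the RhoGAP partner of pav, had 90.6 and 92.8 CPM in E2F + CycD wings and 53.9 and 54.5 CPM in E2F wings at 24 h, against 3.49 and 4.51 CPM in control wings. At 44 h tum had 34.3 and 29.9 CPM in E2F + CycD wings and 1.35 and 1.46 CPM in E2F wings, against 0.244 and 0.779 CPM in control wings. The rise of tum in E2F wings at 44 h (log2 1.46 ± 0.42, edgeR adjusted p = 0.0171) was not called without E2F replicate 1 (0.0504), E2F replicate 2 (0.0527) or control replicate 1 (0.28), or when only the groups compared were fitted (0.116). pnut was called in E2F wings at 44 h, with 268 and 214 CPM against 81.5 and 133 CPM in control wings (log2 1.17 ± 0.23, edgeR adjusted p = 0.002), and was under the fold threshold without control replicate 1 (0.88).

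By role, the members higher than control at 44 h were 5 of 5 kinase and passenger genes in both genotypes, 5 of 5 checkpoint genes in E2F + CycD and 3 in E2F wings, and 7 and 6 of 8 kinetochore genes. They were 9 and 6 of 10 kinesins and spindle genes, 4 and 3 of 4 separation genes, 4 and 3 of 6 condensin and cohesin genes, and 3 and 4 of 4 cytokinesis genes, E2F + CycD first. At 44 h, 8 members were called in E2F + CycD wings alone: Bub3, Mad1, cal1, Klp3A, cana, asp, pim and Cap-G. The share of all genes called in that genotype alone was not counted. In E2F wings cal1 (log2 0.75, edgeR adjusted p = 8.1e-04) and cana (0.86, 0.00148) missed only the fold threshold. Mad1 gave 0.43 (0.0515) and asp -0.91 (0.0556) there. The direct difference between the genotypes was called for 5 of the 8 members, among them the chromokinesin Klp3A (log2 1.13 ± 0.15, edgeR adjusted p = 4.2e-04) and Bub3 (1.22 ± 0.14, 1.2e-04). It was not called for Mad1 (0.83 ± 0.15, 0.0022), cal1 (0.36 ± 0.12, 0.0507) or cana (0.67 ± 0.15, 0.00775). Klp3A was under the fold threshold there without E2F + CycD replicate 1 (0.97).

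Set against each other directly, E2F + CycD and E2F wings differed little at 24 h and widely at 44 h. At 24 h, 2 members were higher in E2F + CycD wings (0.965% of all genes tested) and 2 were lower (3.95%), with a median log2 fold change of 0.08. At 44 h, 20 members were higher, where 4.72% of all genes were, and 2 were lower (6.89%), with a median of 0.89 over the members and -0.07 over all genes. Scaled by library totals, 26 members and 10.8% of all genes were higher at 44 h. The 20 comprised 7 of 10 kinesins and spindle genes, 3 of 8 kinetochore genes, 3 of 6 condensin and cohesin genes, 2 each of the kinases, the separation genes and the cytokinesis genes, and 1 checkpoint gene. The largest rise was that of tum (log2 4.51 ± 0.22, edgeR adjusted p = 4.0e-07), followed by pav (3.65 ± 0.25, 6.4e-06), Sse (3.36 ± 0.37, 1.2e-04), Klp67A (3.31 ± 0.15, 1.7e-07) and polo (2.69 ± 0.19, 7.0e-06). Klp61F (1.60 ± 0.15, adjusted p = 3.9e-05) and pim (1.91 ± 0.31, 0.00125) were also higher. No difference was called for cid (0.25 ± 0.24, 0.499), Ndc80 (0.37 ± 0.29, 0.384), fzy (-0.07 ± 0.24, 0.862) or BubR1 (-0.69 ± 0.19, 0.0216). Nuf2 was lower at both stages, with 6.11 and 3.72 CPM in E2F + CycD wings against 22.5 and 22.8 CPM in E2F wings at 44 h (log2 -2.20 ± 0.24, edgeR adjusted p = 1.2e-04) and a log2 fold change of -2.36 ± 0.24 at 24 h (1.5e-04).

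The other members higher in E2F + CycD wings at 44 h had log2 fold changes between 1.01 and 2.56, led by Spc105R, a kinetochore scaffold (2.56 ± 0.18, edgeR adjusted p = 6.4e-06), aurA (2.50 ± 0.32, 3.1e-04) and asp (2.50 ± 0.31, 2.8e-04). Near the fold threshold, sub (1.01), mars (1.01) and barr (1.14) were each no longer called without some single library: sub without E2F replicate 2 (0.93) or E2F + CycD replicate 1 (0.80), mars without E2F replicate 1 (0.83) or E2F + CycD replicate 1 (0.91), and barr without E2F replicate 2 (at the fold threshold itself). At 24 h 4 members were called. Klp67A, a kinesin-8 that controls spindle length, had 96.3 and 111 CPM in E2F + CycD wings against 46.3 and 48.7 CPM in E2F wings at 24 h (log2 1.12 ± 0.13, edgeR adjusted p = 3.0e-04). Spc105R had 99.8 and 118 CPM in E2F + CycD wings against 48.6 and 55.9 CPM in E2F wings at 24 h (log2 1.06 ± 0.16, adjusted p = 0.00151), and was under the fold threshold without E2F replicate 1 (0.97) or E2F + CycD replicate 2 (0.94). SMC2 was lower at 24 h (log2 -1.24 ± 0.24, edgeR adjusted p = 0.00638), a call lost without E2F + CycD replicate 2 (0.0788). aurB was lower at 44 h (log2 -1.03 ± 0.19, edgeR adjusted p = 0.00299) and was under the fold threshold without E2F replicate 2 (-0.83), without E2F + CycD replicate 2 (-0.91) or when only the groups compared were fitted (-0.94).

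Whether these differences changed with stage was tested as an interaction, the log2 value at 44 h minus that at 24 h. Larger and smaller are meant here with the sign, so a value can also change sign. In mean level, E2F wings went from above control at 24 h to below it at 44 h for Mis12 and asp. E2F + CycD wings went from below E2F wings to above them for glu, among others. The difference between E2F + CycD and E2F wings was larger at 44 h than at 24 h for 18 members, where 2.82% of all genes tested were larger and 2.14% smaller, with the largest shift for tum (log2 3.75 ± 0.27, edgeR adjusted p = 6.4e-05), then pav (2.72 ± 0.32, 0.00144), Sse (2.62 ± 0.46, 0.00841), asp (2.39 ± 0.41, 0.00719), polo (2.26 ± 0.25, 8.9e-04) and Klp67A (2.19 ± 0.19, 2.5e-04). Among the 18, Spc25, Mis12 and sub were not called when any 1 of the libraries compared was left out. The calls of aurA, ncd and pim were each lost without some single libraries. Bub3 was at the fold threshold itself without E2F + CycD replicate 2 of 44 h. The effect of E2F + CycD over control was larger at 44 h for 21 members (7.98% of all genes) and smaller for asp alone (9.68%), at -2.32 ± 0.42 (edgeR adjusted p = 0.00233). The effect of E2F over control was larger at 44 h for 9 members (6.16% of all genes) and smaller for 6 (7.5%), namely Mis12, mars, asp, glu, Cap-D2 and tum (13 and 5 with libraries scaled by their totals). Of these, Mis12 was not called without E2F replicate 1 (edgeR adjusted p = 0.0668) or control replicate 1 (0.0734) of 24 h, or E2F replicate 1 (0.0699) or control replicate 2 (0.0618) of 44 h. Among called members the largest shifts in E2F wings were 3.14 ± 0.69 for aurB (edgeR adjusted p = 0.00898, from 2 control counts at 44 h) and -4.71 ± 0.46 for asp (9.1e-05). Scaled by library totals, 27 members and 9.46% of all genes had a larger difference between E2F + CycD and E2F wings at 44 h, and 29 members and 29.7% a larger E2F + CycD effect over control. All 3 interactions share libraries, and those against control rest on few control counts at 44 h. For cid in E2F + CycD wings (edgeR adjusted p = 0.0476) the control counts at 44 h were 0, and the call was lost with DESeq2 (0.0647), with only the groups compared (0.0673), without E2F + CycD replicate 2 (0.0586) or control replicate 2 (0.151) of 24 h, and without any 1 of the 4 libraries of 44 h (0.0729 to 0.149). The shift of polo in E2F wings (1.19 ± 0.34, edgeR adjusted p = 0.0315) was not called without any 1 of the 4 libraries compared at 24 h (0.0581 to 0.0822), without E2F replicate 1 (0.116) or control replicate 1 at 44 h (0.194). That of tum in E2F wings (-2.28 ± 0.56, adjusted p = 0.0153) was not called without control replicate 2 at 44 h (-1.09, 0.581).

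**Figure D4:**
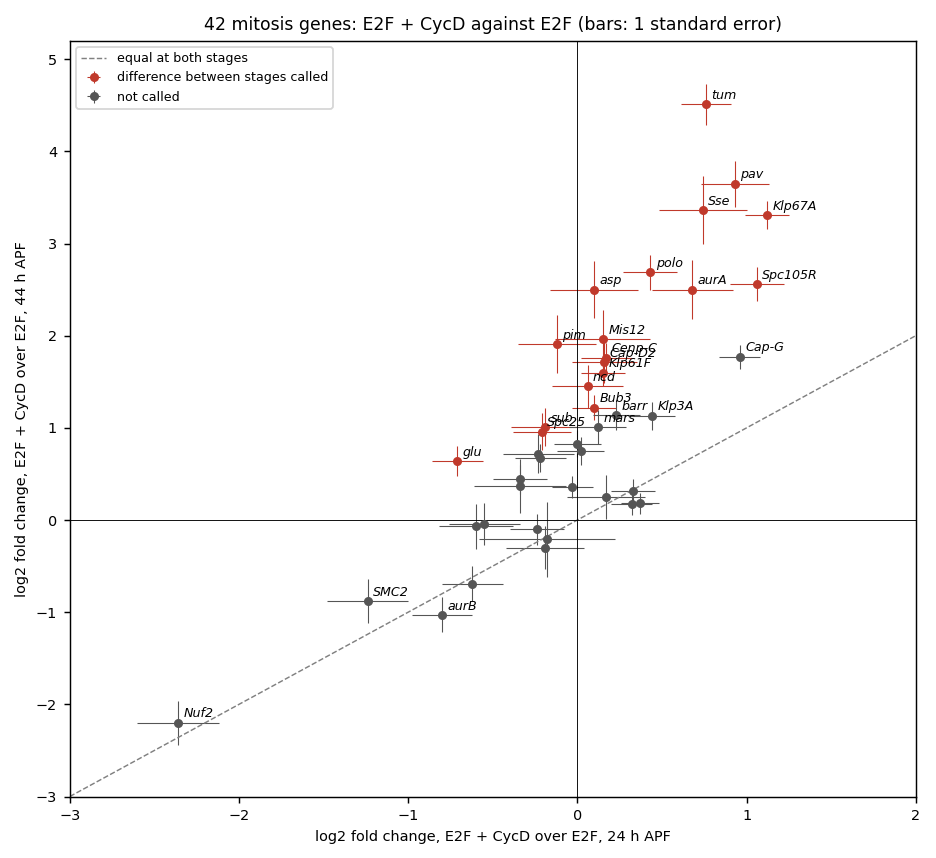
Log2 fold change of E2F + CycD over E2F wings at 44 h against that at 24 h, 1 point for each of the 42 members, with bars of 1 SE and red for the 18 members whose difference changed with stage, and a dashed line of equal values. Most points lie within 1 of 0 along the 24 h axis and spread upward along the 44 h axis to 4.51 for tum, and Nuf2 is low on both, at -2.36 and -2.20.

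With TMM scaling, Klp10A and vtd were called in none of the comparisons between groups. When libraries were scaled by their totals, vtd was called higher in E2F + CycD than control wings at 44 h (log2 1.04, edgeR adjusted p = 2.6e-05) and lower in control wings at 44 h than at 24 h (-1.18, 7.1e-06). With that scaling both genes were also called in the test over all wild-type stages, vtd at 1.06 and Klp10A at 1.21. Under TMM, Klp10A missed only the fold threshold in that test (0.80, edgeR adjusted p = 0.0445), and was called without 24 h replicate 1 (1.09). Klp10A had 148 and 139 CPM in E2F + CycD wings and 132 and 120.4 CPM in E2F wings at 44 h, against 159.8 and 151 CPM in control wings, with all 6 libraries between 120.4 and 159.8 CPM (log2 -0.12 ± 0.11 and -0.30 ± 0.11 over control). vtd had 47.5 and 49 CPM in E2F + CycD wings and 42.9 and 42.6 CPM in E2F wings at 44 h, against 46.8 and 46.3 CPM in control wings. The promoters printed above for these genes hold a TATCGATA element (vtd) and a sequence like the cell cycle homology region (Klp10A), which 9.21% and 48.2% of all promoters also hold.

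Per length, the highest member was polo at 18 h, with a mean of 109 RPKM, and the lowest there was cid at 3.95 RPKM. At 36 h the highest was pnut at 68.1 RPKM and 6 members had means under 0.1 RPKM. At 44 h the median member had 9.46 RPKM in E2F + CycD wings and 4.48 RPKM in E2F wings, against 0.739 RPKM in control wings. At 24 h the medians were 18.6 RPKM and 17.2 RPKM, against 3.58 RPKM.

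A second list of other mitosis genes, 48 of which were matched and 47 tested, is given beside the members. At 24 h against 18 h, 21 were lower (median log2 -0.96), and at 36 h against 24 h, 28 were lower (-1.33). In E2F + CycD wings against control wings, 25 were higher at 24 h (median 1.14) and 29 at 44 h (1.54), with 1 lower at 44 h. In E2F wings against control wings, 28 were higher at 24 h (1.12) and 20 at 44 h (0.86), with 2 lower at 44 h. Between E2F + CycD and E2F wings at 44 h, 14 were higher and 2 lower (0.37), and at 24 h 4 were higher and 2 lower (-0.01). At 44 h against 36 h in wild-type wings, 1 was higher and 4 were lower (0.16). The lists were not tested against each other.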

How the data were processed

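The deposited files hold raw counts of reads per gene for 24 RNA-seq libraries, which the authors made from stranded mRNA libraries of wings, aligned with STAR to dm6 and counted with HTSeq (versions, strand setting and counting mode are not given in the sources used here). In each library 31.56 to 62.8% of alignments were not unique and 0.4 to 0.73% were ambiguous, and these stayed out of the totals. Chromatin accessibility libraries (34) of the series are not used here.

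Groups came from the GEO labels. Counts were tested in R 4.3.3 with edgeR 4.0.16 (quasi-likelihood F-test, TMM scaling, genes kept by filterByExpr at count 10 and total 15, Benjamini-Hochberg adjustment over all genes tested), in 1 fit of the 12 wild-type libraries (8669 genes) and 1 fit of the 12 transgenic libraries (9636 genes). The biological coefficient of variation was 20.2% and 16.4%. The study used DESeq2, which was run as an alternative (DESeq2 1.42.0). Other alternatives were RLE scaling, no filter beyond 1 count, a replicate block, fits of the groups compared alone, each library left out and, added after seeing the data, scaling by library totals. The script was tested on simulated data. Exact intervals cover counting error only. RPKM values were computed from the deposited counts with annotated exon lengths.

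Values per library are given for polo, aurB, BubR1, cid, Ndc80, Klp61F, fzy, pim, SMC2 and pav, for the called member with the largest fold change in each direction of a comparison, for members called against the direction of most others, and for members never called; genes named beyond these were chosen after their values were seen. The members and lists were chosen with earlier results of these data known. Promoters were read from the RefSeq genome of Release 6.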

Additional observations from a re-analysis of the deposited data

Results flagged for a closer look

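Differences between groups were seen in 3 tests of an interaction between genotype and stage. The effect of E2F + CycD over control differed between 44 h and 24 h for 22 members. Taken with its sign, it was larger at 44 h for 21 (7.98% of all genes tested) and smaller for 1 (9.68%). The effect of E2F over control differed for 15 members, larger for 9 (6.16% of all genes) and smaller for 6 (7.5%) at 44 h. The difference between E2F + CycD and E2F wings changed with stage for 18 members. Taken with its sign, it was larger at 44 h for all 18, where 2.82% of all genes tested were larger and 2.14% smaller. Each interaction was tested in the edgeR fit of the 12 transgenic libraries, and the tests share libraries.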

How the results depend on the processing

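Over all alternatives, 7133 of 7493 member values kept their call, 219 lost it, 141 gained it and 0 reversed. Scaling by library totals, chosen after seeing the data, shifted the median of all genes by -0.96 (control wings, 44 h against 24 h) to 0.98 (E2F + CycD against control at 44 h) on the log2 scale. It gave 27 members in place of 18 for the change with stage of E2F + CycD against E2F. It also left 0 members higher at 36 h (pnut) and 0 lower in E2F wings at 44 h (Mis12), and 1 lower in E2F + CycD than E2F wings at 44 h. Its split of members was 3 higher and 3 lower at 44 h against 36 h (4 and 2 with TMM) and 13 larger and 5 smaller for the E2F effect (9 and 6 with TMM). Fitting only the groups compared gave 1 member lower at 44 h than at 36 h, and 1 lower in E2F + CycD than E2F wings at 44 h. With each library left out, members lower at 6 h numbered 20 to 32 and those higher 0 to 1. Members higher at 18 h numbered 21 to 30, and those lower at 24 h 21 to 30. At 36 h 28 to 30 were lower and 0 to 1 higher, and at 44 h against 36 h 2 to 4 were higher and 1 to 2 lower. Over control, 34 to 35 (E2F + CycD) and 31 to 32 (E2F) were higher at 24 h and 37 to 39 and 27 to 29 at 44 h, with 1 to 2 lower in the E2F genotype at 44 h. Between E2F + CycD and E2F wings, 1 to 2 were higher and 1 to 2 lower at 24 h, and 17 to 21 higher and 1 to 2 lower at 44 h. In control wings 26 to 33 were lower at 44 h. The interactions gave 16 to 22 larger and 1 smaller (E2F + CycD), 6 to 9 larger and 4 to 7 smaller (E2F) and 12 to 16 larger (E2F + CycD against E2F). The test over all stages called 39 to 41.

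Replicate numbers did not pair the libraries. Deviations of libraries with the same number correlated at -0.157 to 0.209 in 15 wild-type pairs of groups and at -0.0689 to 0.13 in 15 transgenic pairs. With a replicate block, 25 members were higher at 18 h, 29 were higher in E2F wings at 44 h, 10 had a larger E2F effect and 23 a larger E2F + CycD effect at 44 h, against 24, 30, 9 and 21 without it. With the window cut to 150 bases before the start, 1 member in place of 2 had an E2F site. Depth limits members near 0 in wild-type wings from 36 h and in control wings at 44 h.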
